A study of Homo sapiens with 4 samples.

Results

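The kinetochore and spindle checkpoint genes are 46 named genes whose proteins build the kinetochore on centromeric chromatin or delay anaphase until chromosomes are attached. They were taken from a deposited table of 43450 Ensembl gene IDs by matching each ID, without its version, to a gene symbol, and all 46 matched a single ID. The list was chosen by gene name with earlier results of the same comparison known, CENPQ, CENPK, MAD2L1, NUF2 and TTK among them. The differences between HAL7 knockdown and control given here are therefore descriptions of the members and support nothing by themselves. By role, 19 members belong to the inner centromere network, 15 to the outer kinetochore, 10 to the checkpoint, and 2 are shugoshins.

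The cells were BLaER1, a human B cell leukaemia line with an inducible C/EBPα transgene that allows conversion into macrophage-like cells. The study compared 2 libraries of cells in which the long non-coding RNA HAL7 was knocked down with 2 control libraries, numbered replicate 0 and 1 in each group, all from poly(A) RNA. Knockdown used LNA GapmeRs against HAL7, antisense oligonucleotides that direct RNase H to the bound RNA, put into the medium with no transfection step. The same treatment text stands beside all 4 libraries, and what control cells received, for how long, and whether replicates were separate cultures is not stated there, so the only error that enters the p-values is the difference between libraries of a group, possibly a technical one. Expression values are taken to be FPKM, that is, fragments divided by transcript length in kilobases and by the number of mapped fragments. HAL7 itself stood at 0.475 and 0.347 FPKM in knockdown replicates 0 and 1, against 0.726 and 0.613 FPKM in control replicates 0 and 1, a ratio of means of 0.614. Its mean lay below the minimum of 1 FPKM used for testing, so it was not tested here.

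Low values fell on steps that correspond to a depth of about 108 and 96.2 M fragments in knockdown replicates 0 and 1, against 60.8 and 126 M in control replicates 0 and 1. These figures assume annotated transcript lengths and unscaled libraries, so they are read as relative depths. At these depths the thinnest value of any member, OIP5 in control replicate 0, stands for about 402 fragments if the full annotated transcript length applies. The B lineage was recognisable from DNTT at 1476 and 1392 FPKM in knockdown and at 1463 and 1478 FPKM in control libraries. The macrophage markers CD14, LYZ, ITGAM and FCER1G were each under 0.4 FPKM in every library and FCGR3A was listed at 0 in all, CD163 in 3 of 4, and CSF1R, also a macrophage marker, stood at 33.8 and 38.0 FPKM in knockdown and at 36.3 and 34.8 FPKM in control libraries.

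In a dividing cell the centromere is marked by nucleosomes that carry the histone variant CENP-A. A constitutive network of centromere proteins, the CCAN, binds these nucleosomes and recruits the Mis12, Knl1 and Ndc80 complexes, of which the last grips microtubules. Unattached kinetochores recruit the MAD and BUB proteins and the kinase TTK, which hold back the anaphase-promoting complex. Many of these genes are transcribed mainly in G2 and M phase, so their RNA is abundant in cycling populations. In bulk RNA, more dividing cells and more RNA per dividing cell cannot be told apart.

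All 46 members had a mean of at least 1 FPKM and none was listed at 0 in any library. Their summed level was 1205 and 1215 FPKM in knockdown replicates 0 and 1, against 1133 and 1093 FPKM in control replicates 0 and 1. The log2 change, the difference between the group means of log2(FPKM + 1), knockdown minus control, was above 0 in 38 of 46 members, where 46.8% of the 12934 tested genes had such a change. Its median was 0.14 over the members, with quartiles of 0.04 and 0.24, and -0.0090 over all tested genes, with quartiles of -0.09 and 0.07. Both knockdown libraries lay above both control libraries in 30 members, against 22.5% of all tested genes. Both lay below in 2 members, CENPT and MAD2L2, against 27.7% of all tested genes, and in 14 members the groups overlapped. Ratios of mean FPKM ran from 0.913 in CENPP to 1.47 in CENPQ, and 13 members exceeded a ratio of 1.2.

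Limma called 0 of 46 members at an adjusted p of 0.05 over all tested genes, where it called 0.0309% of those genes, 4 in number. Without 1 library the number called over all genes was 22 (knockdown replicate 0), 12 (knockdown replicate 1), 11 (control replicate 0) or 11 (control replicate 1), and 0 members were called in each case. At an unadjusted limma p under 0.05, 20 members were higher and 0 lower in knockdown libraries, where 7.25% of tested genes were higher and 9.36% lower. Because the members were chosen on this comparison, these counts carry no weight as a test. Replicates of a group differed from each other by a median of 0.07 in absolute log2 value in the knockdown libraries and 0.06 in the control libraries over the members.

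**Figure D1:**
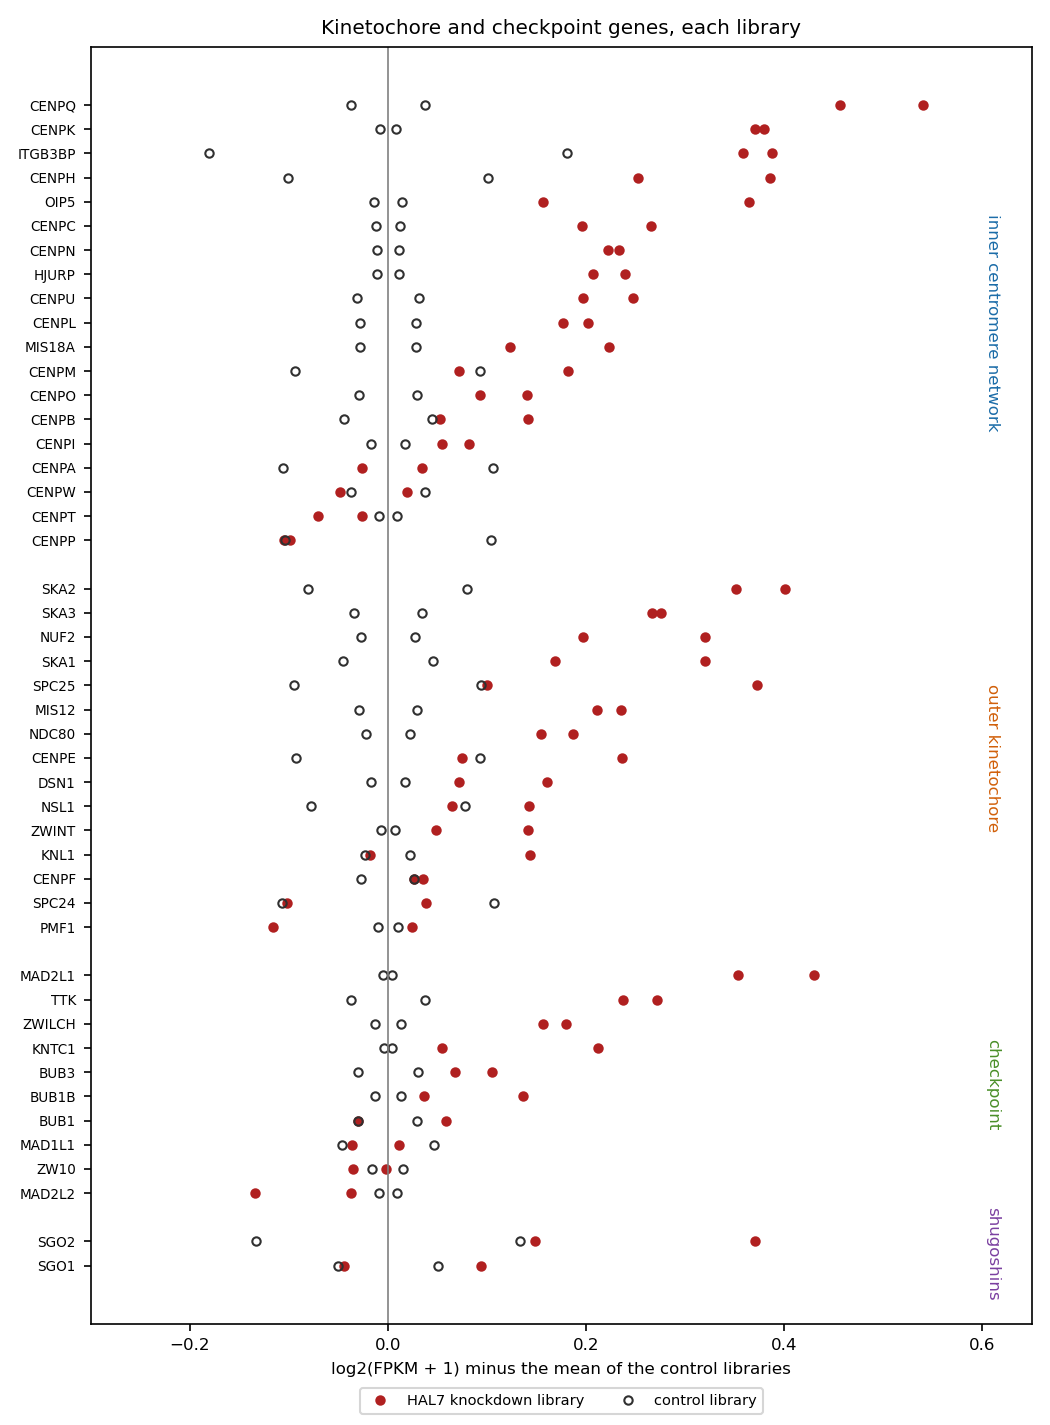
Each of the 46 members is a row, and each point is a library's log2(FPKM + 1) minus the mean of the control libraries, with filled points for HAL7 knockdown and open points for control. In 30 rows both filled points lie right of both open points, CENPQ is farthest right, and CENPT and MAD2L2 have both filled points left of both open points.

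Promoter sequences are shown for the 3 members of highest log2 change and the 2 of lowest that had an entry, so that the letters around their starts can be compared. They are RefSeq windows on GRCh38.p14 that run from 250 bases before to 50 after the first listed start of the gene. Capitals mark matches on either strand to TTTGAA, the core of the cell cycle homology region (CHR) that binds repressor and activator complexes of mitotic genes, to CCAAT, bound by NF-Y, or to GCGGGAA, an E2F-type sequence. In these windows the motifs do not overlap each other.
CENPQ (chr6:49463120-49463419, plus strand): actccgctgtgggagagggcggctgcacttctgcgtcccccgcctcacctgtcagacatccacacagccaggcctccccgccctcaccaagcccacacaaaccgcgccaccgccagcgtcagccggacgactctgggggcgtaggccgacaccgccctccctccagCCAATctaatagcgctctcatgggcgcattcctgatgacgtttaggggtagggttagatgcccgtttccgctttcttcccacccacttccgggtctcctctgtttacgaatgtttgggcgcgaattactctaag
MAD2L1 (chr4:120066799-120067098, minus strand): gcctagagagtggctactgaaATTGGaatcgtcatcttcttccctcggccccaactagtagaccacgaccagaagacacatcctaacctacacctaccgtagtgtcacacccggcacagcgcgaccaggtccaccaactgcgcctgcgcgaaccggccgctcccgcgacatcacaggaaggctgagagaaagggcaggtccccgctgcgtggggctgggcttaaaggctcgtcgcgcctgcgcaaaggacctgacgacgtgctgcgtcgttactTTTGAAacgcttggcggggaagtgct
SKA2 (chr17:59155137-59155436, minus strand): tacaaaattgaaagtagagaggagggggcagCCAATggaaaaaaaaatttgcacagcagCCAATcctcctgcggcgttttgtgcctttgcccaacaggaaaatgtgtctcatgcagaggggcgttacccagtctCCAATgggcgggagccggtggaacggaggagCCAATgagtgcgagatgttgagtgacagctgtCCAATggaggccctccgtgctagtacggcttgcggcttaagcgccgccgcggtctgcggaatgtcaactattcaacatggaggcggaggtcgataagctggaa
CENPP (chr9:92325218-92325517, plus strand): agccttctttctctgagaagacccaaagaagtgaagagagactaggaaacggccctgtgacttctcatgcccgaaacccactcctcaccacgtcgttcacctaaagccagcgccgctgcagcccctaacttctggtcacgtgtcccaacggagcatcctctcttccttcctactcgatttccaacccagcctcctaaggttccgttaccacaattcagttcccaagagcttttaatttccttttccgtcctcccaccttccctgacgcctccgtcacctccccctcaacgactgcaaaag
MAD2L2 (chr1:11691510-11691809, minus strand): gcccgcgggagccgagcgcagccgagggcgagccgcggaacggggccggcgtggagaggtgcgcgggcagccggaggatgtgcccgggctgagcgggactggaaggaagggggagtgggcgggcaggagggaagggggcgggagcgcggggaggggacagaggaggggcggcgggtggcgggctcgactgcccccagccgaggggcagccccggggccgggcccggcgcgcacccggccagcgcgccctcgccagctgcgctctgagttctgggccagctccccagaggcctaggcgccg

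Counted from 1 at the 5′ end, the MAD2L1 window holds ATTGG, which is CCAAT on the other strand, at positions 22 to 26 and TTTGAA at 275 to 280, close behind the start. SKA2 has 5 matches to CCAAT between positions 32 and 202, and CENPQ has 1 at 167 to 171. CENPP and MAD2L2 have no match to any of the 3 sequences, which says only that these letters are not in these windows. RefSeq lists further starts for both, 3 in all for CENPP and 2 for MAD2L2. Of 38 members with an entry, 15 (39.5%) held TTTGAA, against 15.4% of 27305 genes with a window and 9.31% of the 9457 tested genes among them. CCAAT occurred in 22 members (57.9%), against 35.7% of all windows and 37.0% of those of tested genes. GCGGGAA occurred in 8 members (21.1%), against 6.56% and 10.4%. The median log2 change was 0.22 in the 15 members with TTTGAA and 0.10 in the 23 without. For CCAAT it was 0.22 in the 22 members with a match and 0.11 in the 16 without. For GCGGGAA it was 0.23 in the 8 members with a match and 0.12 in the 30 without. That split is not given here for other tested genes. These are descriptions of letters in a window, with no test, and not evidence of binding.

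Inner centromere genes had the highest median log2 change of the groups, 0.19 over 19 genes, with 16 above 0 and 14 in which both knockdown libraries exceeded both control libraries. CENPQ, a subunit of the CENP-O complex (ENSG00000031691.5, chr6:49463378-49493107, plus strand, GRCh38), stood at 11.7 and 10.98 FPKM in knockdown replicates 0 and 1, against 7.96 and 7.51 FPKM in control replicates 0 and 1. Both knockdown values are well clear of both control values, with a log2 change of 0.50 ± 0.07 (SE, as for each log2 change below) and a ratio of 1.47, above 99.6% of tested genes. Each such SE is limma's, in which a gene's own spread is drawn toward that of genes of like level. It is therefore not the gene's own replicate spread. For ITGB3BP it was 0.11, against a pooled SD between replicates of 0.18, and for CENPK 0.05, against 0.0089. CENPK (ENSG00000123219.7, chr5:65517766-65563171, minus strand), which joins CENP-H, CENP-I and CENP-M in a CCAN module, had 25.2 and 25.4 FPKM in knockdown, against 19.4 and 19.2 FPKM in control libraries. Its replicates almost coincide within each group, and its log2 change was 0.38 ± 0.05. CENPH, a partner of CENP-K, had 26.6 and 29.3 FPKM in knockdown and 23.8 and 20.6 FPKM in control libraries, a log2 change of 0.32 ± 0.08. The other subunits of that module were nearer to no difference: CENPM had a log2 change of 0.13 ± 0.08 with overlapping groups, and CENPI, the member of lowest level at 3.58 and 3.49 FPKM in knockdown and 3.38 and 3.27 FPKM in control libraries, 0.07 ± 0.07. The value of CENPM was 0.07 without knockdown replicate 1, 0.22 without control replicate 0 and 0.03 without control replicate 1.

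The CENP-O complex itself was uneven. ITGB3BP, which encodes CENP-R, stood at 59.1 and 57.9 FPKM in knockdown, against 51.1 and 39.5 FPKM in control replicates 0 and 1. The control libraries differ more from each other here than control replicate 0 does from knockdown, and the log2 change of 0.37 ± 0.11 has the widest error of the inner centromere genes. It was 0.19 without control replicate 1 and 0.55 without control replicate 0. CENPU, which recruits the kinase PLK1 to kinetochores, had 53.9 and 52.0 FPKM in knockdown and 44.3 and 46.3 FPKM in control libraries, a log2 change of 0.22 ± 0.05 with groups that do not overlap. A pseudogene of it, CENPUP2, was listed at 6.63 and 6.03 FPKM in knockdown and at 7.65 and 5.90 FPKM in control libraries, so reads may be divided between the copies. CENPO, the namesake subunit, had a log2 change of 0.12 ± 0.06. CENPP, its direct partner, lay on the other side of 0, with 3.78 and 3.80 FPKM in knockdown, against 4.52 and 3.78 FPKM in control replicates 0 and 1, a log2 change of -0.10 ± 0.09. That value rests on control replicate 0, and without this library the log2 change of CENPP was 0.0023, and without control replicate 1 it was -0.21.

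CENPT and CENPW encode histone-fold proteins that pair with each other, and CENP-T binds the Ndc80 complex. Both genes had log2 changes just below 0. CENPT had 38.4 and 39.6 FPKM in knockdown and 40.1 and 40.6 FPKM in control libraries, a log2 change of -0.05 ± 0.05. CENPW had 13.8 and 14.5 FPKM in knockdown and 13.9 and 14.7 FPKM in control libraries, with a log2 change of -0.01 ± 0.06, so its replicates differ more than its groups. CENPA, the histone variant that marks the centromere, had 10.6 and 10.1 FPKM in knockdown, between the control values of 11.2 and 9.504 FPKM, with a log2 change of 0.0040 ± 0.08. The factors that deposit it stood higher: HJURP, its chaperone, had 18.9 and 18.5 FPKM in knockdown, against 15.8 and 16.0 FPKM in control libraries, with a log2 change of 0.22 ± 0.05. OIP5 and MIS18A, subunits of the Mis18 complex that prepares centromeres for new CENP-A, had log2 changes of 0.26 ± 0.09 and 0.17 ± 0.07, both without overlap. That of OIP5 was 0.16 without knockdown replicate 1. CENPC, which links CENP-A nucleosomes to the Mis12 complex, and CENPN, which reads CENP-A, had log2 changes of 0.23 ± 0.06 and 0.23 ± 0.05, and CENPL, the partner of CENP-N, 0.19 ± 0.06. CENPB, which binds a sequence box in alpha satellite DNA, had a log2 change of 0.10 ± 0.06.

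Outer kinetochore genes had a median log2 change of 0.16 over 15 genes, with 13 above 0 and 9 in which both knockdown libraries exceeded both control libraries. The Ska complex, which keeps kinetochores on shrinking microtubule ends, had a median log2 change of 0.27, with no overlap between groups in any of its 3 subunits. SKA2 (ENSG00000182628.7, chr17:59109951-59155269, minus strand) had 11.2 and 10.8 FPKM in knockdown, against 8.78 and 7.75 FPKM in control libraries, a log2 change of 0.38 ± 0.07. SKA3 had 13.2 and 13.1 FPKM in knockdown and 11.01 and 10.5 FPKM in control libraries, a log2 change of 0.27 ± 0.06. SKA1 had 8.66 and 7.71 FPKM in knockdown and 6.99 and 6.504 FPKM in control libraries, a log2 change of 0.24 ± 0.08. Mean levels of the subunits ran from 7.47 FPKM for SKA1 to 11.9 FPKM for SKA3.

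In the Ndc80 complex, the microtubule-binding rod, 3 of 4 subunits stood higher. NUF2 had 24.2 and 22.2 FPKM in knockdown, against 19.6 and 18.8 FPKM in control libraries, a log2 change of 0.26 ± 0.06. NDC80, which pairs with NUF2 at the microtubule end of the rod, had a similar mean level, 21.7 ± 0.365 FPKM in knockdown and 19.2 ± 0.441 FPKM in control libraries (SD, n = 2 each), and a log2 change of 0.17 ± 0.05. The subunits of the opposite end were lower in level and unlike each other in change: SPC25 had a log2 change of 0.24 ± 0.11, and SPC24 had 12.7 and 14.1 FPKM in knockdown and 14.8 and 12.6 FPKM in control libraries, a log2 change of -0.03 ± 0.09. The value of SPC25 was 0.10 without knockdown replicate 0, 0.37 without knockdown replicate 1 and 0.14 without control replicate 1. The knockdown values of SPC24 lie within the span of its control values.

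The Mis12 and Knl1 complexes, which join the CCAN to the Ndc80 complex and the checkpoint, had median log2 changes of 0.11 and 0.08. MIS12 had a log2 change of 0.22 ± 0.06 and DSN1 of 0.12 ± 0.06, both without overlap, and that of DSN1 was 0.07 without knockdown replicate 0. NSL1 had 25.7 and 27.2 FPKM in knockdown and 23.2 and 26.0 FPKM in control libraries, where the groups overlap and the log2 change was 0.10 ± 0.07. It was 0.06 without knockdown replicate 1, 0.03 without control replicate 0 and 0.18 without control replicate 1. PMF1 had 32.7 and 36.2 FPKM in knockdown, on either side of the control values of 35.3 and 35.8 FPKM, a log2 change of -0.05 ± 0.06. ZWINT, which binds KNL1 and was the outer kinetochore gene of highest level, had 50.2 and 53.6 FPKM in knockdown and 48.2 and 48.7 FPKM in control libraries, a log2 change of 0.09 ± 0.05. KNL1, the scaffold on which BUB proteins assemble, had 9.10 and 8.03 FPKM in knockdown and 8.29 and 7.997 FPKM in control libraries, a log2 change of 0.06 ± 0.08 with overlapping groups. Of the large corona-associated proteins, the kinesin gene CENPE had a log2 change of 0.16 ± 0.09 with overlapping groups, which ran from 0.06 without control replicate 1 to 0.25 without control replicate 0, with 0.08 and 0.24 without knockdown replicates 0 and 1. CENPF had 14.99 and 15.1 FPKM in knockdown and 14.99 and 14.4 FPKM in control libraries, a log2 change of 0.03 ± 0.06.

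Checkpoint genes had the lowest median of the larger groups, 0.09 over 10 genes, with 7 above 0 and 6 in which both knockdown libraries exceeded both control libraries. Without knockdown replicate 0 that median was 0.046. MAD2L1 (ENSG00000164109.8, chr4:120055608-120067074, minus strand), whose product MAD2 captures CDC20 to restrain the anaphase-promoting complex, had 35.4 and 37.4 FPKM in knockdown, against 27.6 and 27.4 FPKM in control libraries. The gap between groups is far wider than the gap within either, and the log2 change was 0.39 ± 0.05. TTK, the kinase that starts checkpoint signalling, had 8.01 and 7.79 FPKM in knockdown and 6.66 and 6.27 FPKM in control libraries, a log2 change of 0.25 ± 0.06. ZWILCH and KNTC1 belong with ZW10 to the RZZ complex, which brings MAD1 and dynein to kinetochores. ZWILCH had 11.3 and 11.1 FPKM in knockdown and 9.97 and 9.77 FPKM in control libraries, a log2 change of 0.17 ± 0.06. KNTC1 had 29.97 and 26.8 FPKM in knockdown and 25.8 and 25.7 FPKM in control libraries, a log2 change of 0.13 ± 0.07 that was 0.05 without knockdown replicate 0 and 0.21 without knockdown replicate 1. ZW10, also known for a role in vesicle transport, had 10.1 and 9.85 FPKM in knockdown and 10.2 and 10.0 FPKM in control libraries, a log2 change of -0.02 ± 0.06.

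The BUB genes and the remaining MAD genes had log2 changes between -0.09 and 0.09. BUB3, the adaptor that docks BUB1 and BUBR1 on KNL1 and the member of highest level, had 209 and 214 FPKM in knockdown and 203 and 195 FPKM in control libraries, a log2 change of 0.09 ± 0.05. BUB1B, which encodes BUBR1, also had a log2 change of 0.09, with an SE of 0.06. In BUB3 and BUB1B both knockdown libraries lay above both control libraries. BUB1, a kinase of the same family, had 28.7 and 26.9 FPKM in knockdown and 28.1 and 26.9 FPKM in control libraries, with a log2 change of 0.01 ± 0.06. MAD1L1, which anchors MAD2 at kinetochores, had 46.5 and 48.1 FPKM in knockdown and 49.3 and 46.2 FPKM in control libraries, a log2 change of -0.01 ± 0.06. MAD2L2, a relative of MAD2 best known as a subunit of DNA polymerase zeta and of shieldin, had 120 and 128 FPKM in knockdown, both under the control values of 132 and 131 FPKM, a log2 change of -0.09 ± 0.05. MAD2L1 and MAD2L2 thus stood at opposite ends of the checkpoint group before any correction for GC content. With the GC trend removed, as described below, MAD2L2 stood at 0.0015, above BUB1 at -0.02 and ZW10 at -0.05.

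The shugoshins protect centromeric cohesin until anaphase. SGO2 had 12.4 and 10.5 FPKM in knockdown and 10.4 and 8.46 FPKM in control libraries, where the lower knockdown value barely exceeds the higher control value and the log2 change was 0.26 ± 0.11. It was 0.15 without knockdown replicate 0, 0.39 without control replicate 0 and 0.13 without control replicate 1. SGO1 had 7.03 and 6.30 FPKM in knockdown and 6.27 and 6.80 FPKM in control libraries, a log2 change of 0.02 ± 0.08 with overlapping groups.

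**Figure D2:**
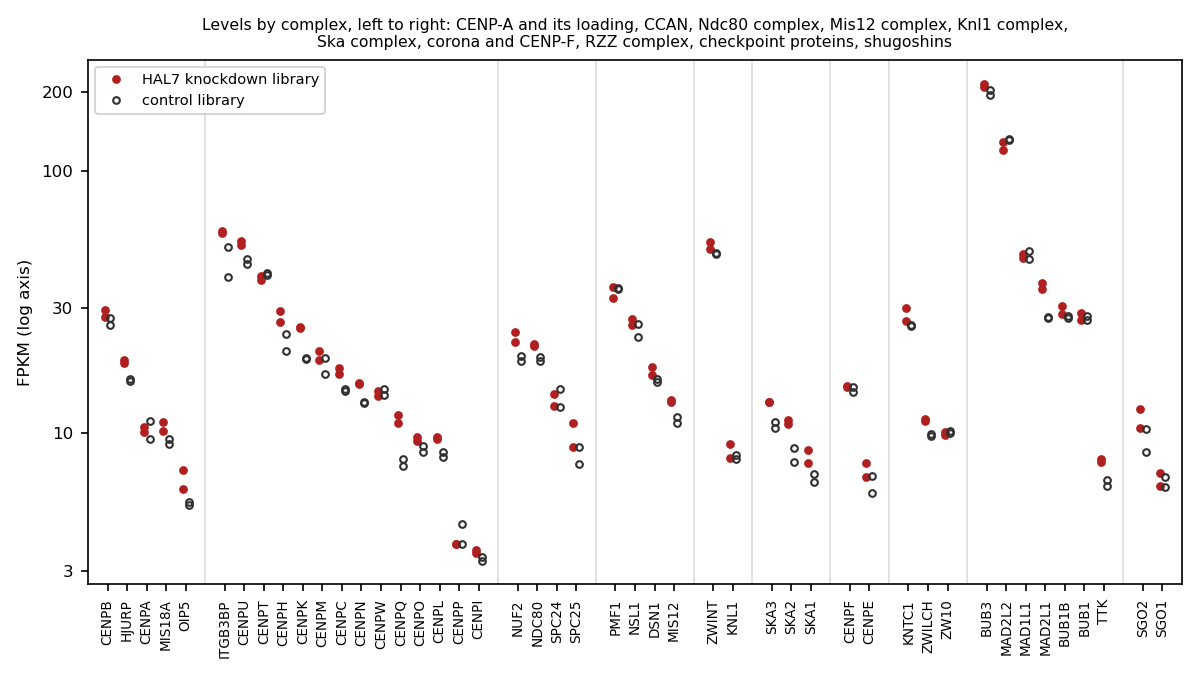
FPKM on a log axis for each member in each library, with filled points for HAL7 knockdown left of open points for control, grouped by complex and ordered by mean level within it. BUB3 at 195 to 214 FPKM and MAD2L2 at 120 to 132 FPKM stand above all other members, and CENPI and CENPP are lowest.

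Levels differed far more between members than between groups. Mean levels over the libraries ran from 3.43 FPKM for CENPI to 205 FPKM for BUB3, with a median of 14.6 FPKM, against 12.5 FPKM over all tested genes. Partners in a complex were not always at like levels per length: KNL1 averaged 8.35 FPKM and its partner ZWINT 50.2 FPKM, and in the CENP-O complex CENPP averaged 3.97 FPKM and ITGB3BP 51.9 FPKM. NUF2 and NDC80 were close, at 21.2 and 20.4 FPKM, as were CENPH and CENPK, at 25.1 and 22.3 FPKM. Exons of 19 members overlap those of another annotated gene, and strand-specific counting is not stated, so their reads cannot be told apart from those of the neighbour with certainty. The neighbours of highest level were RPL4 at 4934 FPKM beside ZWILCH, OIP5-AS1 at 44.9 FPKM beside OIP5, ADCY3 at 31.7 FPKM beside CENPO, NOL8 at 31.0 FPKM beside CENPP and NUTF2 at 30.9 FPKM beside CENPT.

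Transcript GC content moved with the change. The members had a median GC content of 41.6%, against 49.0% over the tested genes with an annotated transcript, and 36 of 46 lay below the median of those genes. Of these 36, 34 had a log2 change above 0, with a median of 0.18, where 62.2% of all tested genes on that side did, with a median of 0.03. Of the 10 members above it, 4 had a log2 change above 0, with a median of -0.02, where 31.3% of tested genes there did, with a median of -0.05. Both knockdown libraries lay above both control libraries in 27 of the 36 members below the median, against 2200 of 6248 tested genes there. Above the median the counts were 3 of 10 members, against 625 of 6250 tested genes. Across the 46 members log2 change and GC content had a Spearman rho of -0.53 and a Pearson r of -0.56, and across 12498 tested genes -0.41 and -0.29. These are descriptions across genes, which share the same 4 libraries and are not independent. The Spearman coefficient was -0.55 among the 19 inner centromere genes, -0.41 among the 15 outer kinetochore genes and -0.92 among the 10 checkpoint genes. Pearson r was -0.55, -0.63 and -0.65 in the same order. The checkpoint genes included MAD2L1 at 39.4% GC and MAD2L2 at 63.4% GC. Replicates of the knockdown also differed along GC content: replicate 1 minus replicate 0 had a rho of 0.34 over all tested genes and 0.43 over the members, and for the control replicates these values were 0.06 and -0.0044.

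With the GC trend of all genes removed from each library, the log2 change was above 0 in 39 of 46 members, against 50.7% of 12498 genes, and its median was 0.13, against 0.0018 over those genes. The trend itself had a median of 0.04 at the members' GC content. The group medians were then 0.17 for inner centromere genes, 0.10 for outer kinetochore genes and 0.06 for checkpoint genes. CENPQ moved to a log2 change of 0.40, MAD2L1 to 0.34, SKA2 to 0.31 and CENPK to 0.27, the last being the member of lowest GC content at 32.9%. Members of high GC content moved the other way: CENPB, at 66.2% GC, had 0.21 in place of 0.10, CENPM 0.20 in place of 0.13, and MAD2L2 0.0015 in place of -0.09. Transcript length was not part of this correction. Over the members log2 change and log2 length had a rho of -0.12.

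**Figure D3:**
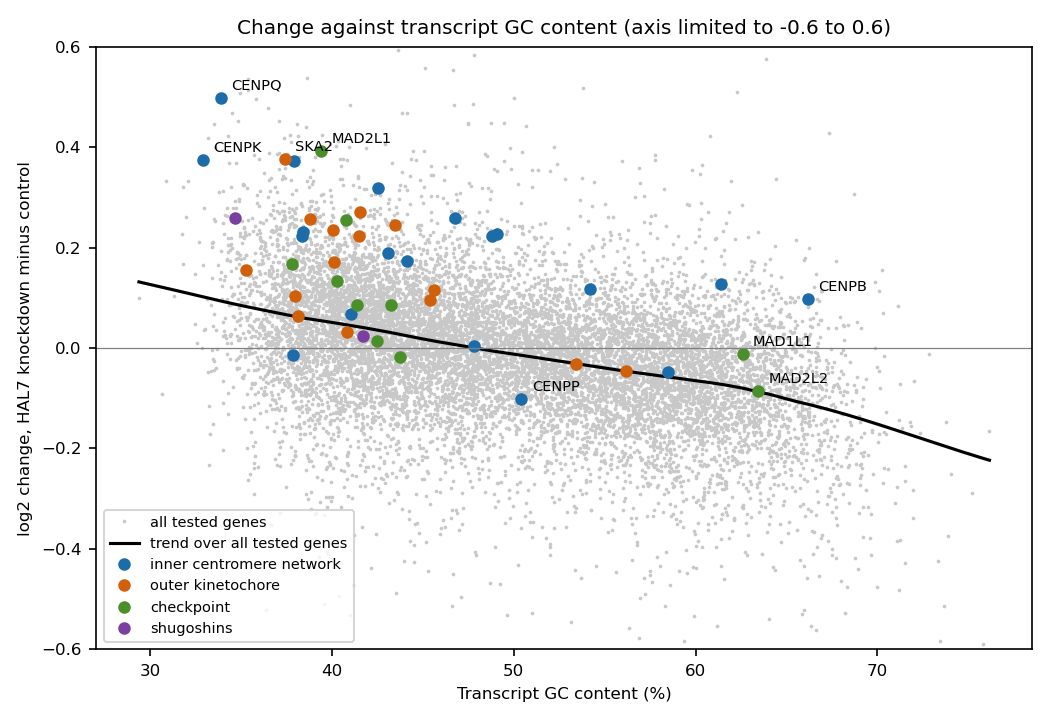
Log2 change, HAL7 knockdown minus control, against transcript GC content in percent, with tested genes in grey, their trend as a line and members coloured by group; 56 tested genes lie outside the plotted range of -0.6 to 0.6. Most members lie left of 49.0% GC and above the line, with CENPQ highest, and MAD2L2 lies on the line at 63.4% GC.

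The order of the group medians, inner centromere over outer kinetochore over checkpoint, was the same as reported and in 12 alternatives, not all of which could change it. Dropping the filter or adding the replicate block leaves the medians as they are, and median centring shifts all of them alike. Requiring a mean of at least 5 FPKM moved only the inner centromere median, from 0.19 to 0.22. The inner centromere and outer kinetochore medians lay close together, at 0.19 and 0.16 as reported. Without knockdown replicate 1 they were 0.20 and 0.19. The pooled SD between replicates of these medians was 0.02 and 0.04. However, the difference between groups was not tested, since all members were chosen on this comparison. Within every group single members lay far apart, from -0.10 to 0.50 among inner centromere genes, from -0.05 to 0.38 among outer kinetochore genes and from -0.09 to 0.39 among checkpoint genes.

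**Figure D4:**
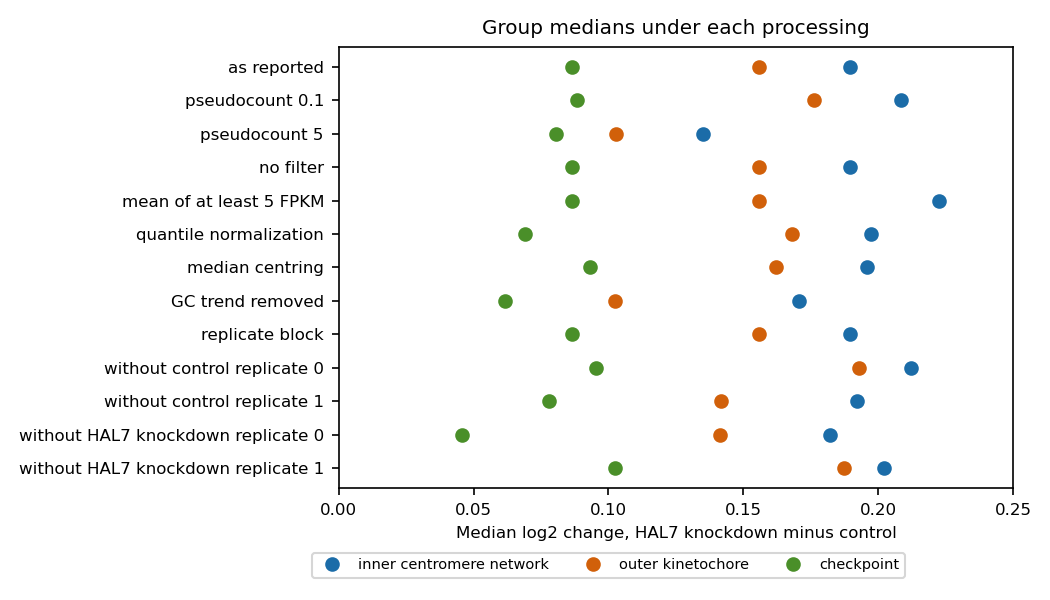
Median log2 change, HAL7 knockdown minus control, of the 3 larger groups as reported and under 12 other ways of processing, each a row, of which the rows without a filter and with the replicate block repeat the reported medians. Median centring shifts all of them alike. Inner centromere genes lie right of outer kinetochore genes and these right of checkpoint genes in every row, with checkpoint genes lowest, at 0.046, without knockdown replicate 0.

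Other genes of the pathway, from lists that hold no member, had median log2 changes of 0.02 to 0.07. Their median GC content was higher than that of the members, at 49.3% in the partners, 53.9% in the passenger complex and 46.8% in the anaphase-promoting complex. With the GC trend removed their medians were 0.05, 0.10 and 0.04 in the same order, against 0.13 over all members. Among the member groups it was then 0.17 in inner centromere, 0.10 in outer kinetochore and 0.06 in checkpoint genes. Of 16 kinetochore and centromere partners, 9 had a log2 change above 0 and 7 below, with a median of 0.02, and limma called 0. CENPX, a histone-fold partner of CENP-S, had 26.1 and 29.8 FPKM in knockdown and 29.04 and 27.0 FPKM in control libraries. DYNLT3, a dynein light chain gene, had the highest log2 change of these at 0.25 ± 0.11. Its values were 6.71 and 5.29 FPKM in knockdown and 4.996 and 4.70 FPKM in control libraries. In the chromosomal passenger complex, which corrects wrong attachments, and its recruiter HASPIN, 5 of 5 genes were above 0 with a median of 0.07, and 0 were called. AURKB, its kinase, had 39.5 and 38.5 FPKM in knockdown and 39.1 and 36.5 FPKM in control libraries, and INCENP, its scaffold, 23 and 23.5 FPKM in knockdown and 23.4 and 22 FPKM in control libraries. HASPIN had 6.59 and 7.18 FPKM in knockdown and 6.09 and 6.27 FPKM in control libraries, a log2 change of 0.13 ± 0.07. Among 18 genes of the anaphase-promoting complex and its activators and enzymes, 13 were above 0 and 5 below, with a median of 0.05, and 0 were called. ANAPC5 had 92.1 and 96.6 FPKM in knockdown and 96.7 and 97.2 FPKM in control libraries, and ANAPC16 65.3 and 64.3 FPKM in knockdown and 63.1 and 61.7 FPKM in control libraries. UBE2S, the chain-elongating enzyme, had a log2 change of -0.24 ± 0.12. Its values were 28.1 and 36.8 FPKM in knockdown and 39.8 and 36.4 FPKM in control libraries. The groups overlap, as knockdown replicate 1 lies above control replicate 1.

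Markers of proliferation were mostly higher beside the members. Of 8 such genes, 7 had a log2 change above 0, with a median of 0.17. Their summed level was 439 and 464 FPKM in knockdown, against 406 and 388 FPKM in control libraries. Their median GC content was 45.5%, and with the GC trend removed their median log2 change was 0.15. CDK1, the kinase that drives entry into mitosis, had 47.4 and 46.3 FPKM in knockdown and 38.4 and 33 FPKM in control libraries. Its log2 change was the highest of these genes at 0.39 ± 0.08. PCNA, the replication clamp, had 132 and 152 FPKM in knockdown and 123 and 121 FPKM in control libraries. TYMS, which makes thymidylate, had 57.9 and 62.5 FPKM in knockdown and 57.9 and 54.7 FPKM in control libraries. Of 9 B lineage markers, 2 were above 0 and 7 below, with a median of -0.07. Their summed level was 3796 and 3839 FPKM in knockdown and 3916 and 3905 FPKM in control libraries. Their median GC content was 59.5%, and with the GC trend removed their median log2 change was -0.04. Of all tested genes above 49.0% GC, 31.3% had a log2 change above 0. IGLL1, a surrogate light chain gene, had 866 and 955 FPKM in knockdown and 904 and 925 FPKM in control libraries. RAG1, a recombinase gene, had 216 and 191 FPKM in knockdown and 240 and 252 FPKM in control libraries. The log2 change of RAG1 was -0.27 ± 0.07. Of 8 macrophage markers 2 were tested, CSF1R with a log2 change of 0.01 ± 0.07 and CD68 with -0.31 ± 0.10. The summed level of all 8 was 36.9 and 40.4 FPKM in knockdown and 39.7 and 38.8 FPKM in control libraries. Of 6 T and NK cell markers only NKG7 was tested, with a log2 change of -0.47 ± 0.11. The summed level of all 6 was 22.0 and 17.2 FPKM in knockdown and 27.6 and 27.2 FPKM in control libraries. CD3D and CD2 were listed at 0 throughout. Limma called 0 genes in each of these lists. The part of GC content, of the shallower control library or of cell make-up in the members' values was not tested.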

How the data were processed

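Poly(A) RNA of 4 libraries was measured. The deposited values were read as FPKM: their ID column is named as Cuffdiff names it, and they are not whole. Per the submitters' processing notes, the authors used Bowtie2 2.2.5, TopHat2 2.0.14 and Cuffdiff 2.2.1 with hg19. Options and annotation were not given in the sources used here.

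IDs were matched to symbols by Ensembl ID. GC content and length are those of the longest transcript of the gene's own type in GENCODE 29 (GRCh38), found for 96.6% of the 12934 tested genes, and gene positions are from the same release. Relative depth came from 1215 genes with a single transcript of at least 2500 nt, where 80.1% to 85.1% of low values lay within 0.15 of a whole multiple of a step, against 30% by chance.

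Limma 3.58.1 in R 4.3.3 was run on log2(FPKM + 1), which understates changes of low genes, over genes averaging 1 FPKM or more. It used a variance trend and two-sided, Benjamini-Hochberg adjusted p-values, and was tested on simulated data. The GC trend was a loess curve per library. Other pseudocounts, filters, scalings, a replicate block and leaving out each library were tried. Members, lists and tests were chosen with earlier results of these data known. The rule gave values per library, in each group, for the 3 members of highest level and the 4 of highest and the 4 of lowest log2 change. CENPI and HJURP lie outside it, and their choice was made with values in view, as was that of the log2 changes given for the remaining members. In context lists it named the 2 genes of highest level and the 1 of largest log2 change; some genes that the rule covers are not reported here. Protein sequences were not used here.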

Additional observations from a re-analysis of the deposited data

How the results depend on the processing

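The number of genes called was 4 as reported, 2 with a pseudocount of 0.1, 1 without a filter, 1 with a mean of at least 5 FPKM, and 11 to 22 with a library left out, where the single library of a group borrows its spread from the other group. With the replicate number as a block it was 19. No label ties same-numbered libraries, their deviations correlated at 0.12, and replicate 1 lay below replicate 0 in 29 of 46 members in knockdown and 33 in control libraries. With only 2 pairs, whether the numbers pair the libraries was not established. Members called were 0 in all these settings. The median log2 change of all members was 0.11 with a pseudocount of 5 and 0.13 to 0.17 with a library left out. For inner centromere genes it was 0.13 with a pseudocount of 5, 0.22 with a mean of at least 5 FPKM and 0.18 to 0.21 with a library left out. For outer kinetochore genes it was 0.10 with a pseudocount of 5, 0.10 with the GC trend removed and 0.14 to 0.19 with a library left out. For checkpoint genes it was 0.046 to 0.10 with a library left out. The cause was not tested.

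Of 46 members, 33 had a log2 change above 0 in every setting, ZW10 was below 0 in every setting and 12 took either sign. Without knockdown replicate 0, CENPA, CENPW, SPC24, PMF1, KNL1, BUB1, MAD1L1 and SGO1 changed sign. Without control replicate 0, CENPP, SPC24, MAD1L1 and SGO1 did, and without control replicate 1, CENPA, CENPW and BUB1. With the GC trend removed, CENPT, PMF1, CENPF, BUB1, MAD1L1, MAD2L2 and SGO1 did. None of these members was called.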
